A study of Mus musculus with 3 samples.

Results

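Glycosaminoglycan genes were followed through RNA-seq of mouse primary chondrocytes, the cells that make cartilage. The set holds 42 genes grouped by function, for sulfate supply, for the linker, chondroitin, dermatan and heparan sulfate enzymes and for the enzymes that remodel finished chains. They were chosen with earlier results of these data known. The count table has 44788 gene symbols, and all 42 genes were among them. Of the 42, 40 passed the filter on low counts, and the other 2, Chst13 and Hs3st1, were at or near 0 in every library.

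The cKO group (2 libraries) came from cells of the genotype Col2a1-CreERT2;Kdm6bf/f, and the control group (1 library) from cells of the genotype Kdm6bf/f, which carry the floxed alleles without the recombinase. All cells came from knee joint cartilage of C57BL/6 mice, were grown with 10% serum and received 1 µM 4-hydroxytamoxifen for 48 hours. CreERT2 is a tamoxifen-activated recombinase, here driven by the promoter of the cartilage collagen gene Col2a1, so it acts only in cells that use that promoter. Kdm6b encodes an enzyme that erases a repressive methyl mark on histone H3. The control received tamoxifen but had no recombinase, so the effect of the recombinase itself and that of losing Kdm6b cannot be told apart in this design. The labels do not say whether the cells were pooled from several animals, and they give no age.

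Glycosaminoglycans are long sugar chains attached to core proteins. A chain starts with xylose on the core protein and a short linker, and then grows as chondroitin or as heparan, depending on the next sugar added. Sulfotransferases decorate the chain with sulfate taken from the activated donor PAPS. In cartilage, chondroitin sulfate on aggrecan holds the water that lets the tissue resist compression, while heparan sulfate binds growth factors. Defects of sulfate uptake or of PAPS synthesis are known causes of short stature and skeletal dysplasia.

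The libraries held between 12489738 and 12636471 counts, and 3 counts correspond to 0.234 to 0.242 CPM. CPM values are read counts scaled by the TMM-normalised library size, so that libraries can be compared. Counts of Kdm6b itself were 1049 and 948 in cKO, against 1289 in control cells. Its log2 fold change was -0.39 ± 0.14 (SE), and it did not pass the test (adjusted p = 0.138 in edgeR). These gene-level counts can include exons outside the floxed part, so they check the genotype only weakly. How completely the floxed part was removed in these cells was not tested. The cKO libraries differ in sex-linked RNA, with 2 and 10081 counts of Xist against 1 in the control, and with 680 and 0 counts of the Y-linked gene Ddx3y against 732 in the control. The labels do not describe how the cKO libraries are related, but with these counts they cannot be 1 culture sequenced again. In these genes cKO 1 resembled the control and cKO 2 did not. The error estimate behind the p-values comes from the cKO pair alone. It therefore includes this sex-linked difference, and part of it may be technical. The effect of the difference on other genes was not tested.

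Of the 40 measured glycosaminoglycan genes, 6 fell in cKO chondrocytes, 1 rose and 33 did not pass edgeR's quasi-likelihood test at an adjusted p of 0.05. The calls make up 15.0% of the 40 members for lower and 2.50% for higher, against 1.90% and 3.01% of all 15529 genes tested. Because the members were chosen with earlier results of these data known, their shares only describe this set. The 6 that fell supply sulfate (Slc26a2, Papss1, Papss2) or build and sulfate chondroitin (Csgalnact1, Chsy3, Chst11). The gene that rose was Hpse, which encodes heparanase. In bulk RNA, fewer chondrocytes and less RNA per chondrocyte cannot be told apart, and 9 of 10 chondrocyte markers fell as well in edgeR. The median log2 fold change was -0.08 over the 40 members and -0.002 over all genes tested. Only the cKO pair gives the model its 1 residual degree of freedom, and the single control is taken to vary as that pair does. With 3 prior degrees of freedom in place of the estimated 19.9, 0 of the 40 genes were called (9 had an unadjusted p under 0.05), and 1, Slc26a2, was called with them set to 5. Leaving out genes under a mean of 5 CPM ended the calls of Papss1, Csgalnact1, Chsy3 and Hpse, and applying no filter on low counts ended all 7.

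Both cKO libraries lay below the control for 23 of the 40 genes, or 57.5%, against 37.4% of all genes tested. Both lay above it for 15, or 37.5%, against 36.6% of all genes. The other 2, Xylt2 and B4galt7, had the control between the cKO libraries. In these shares and in those of the calls, members and all genes differ in level. A mean of at least 5 CPM was reached by 39 members, and by 11339 of all genes, beside 15529 genes tested. By a rule without a model, which asks for a difference of at least 1.5-fold from the control in each cKO library, 4 of the 39 members with a mean of at least 5 CPM were lower, or 10.3%, against 2.21% of all genes at that level. These were Slc26a2, Papss2, Chsy3 and Chst11. Only Hpse was higher by this rule, which is 2.56% of the 39, against 3.36% of all genes at that level. Over the 40 members, log2 differences from the control had an SD of 0.417 for cKO 1 and 0.423 for cKO 2, while the SD of the difference within the cKO pair was 0.159. These are spreads over genes, not over replicates. The single control enters both differences from it, so its own deviation is part of both SDs.

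**Figure D1:**
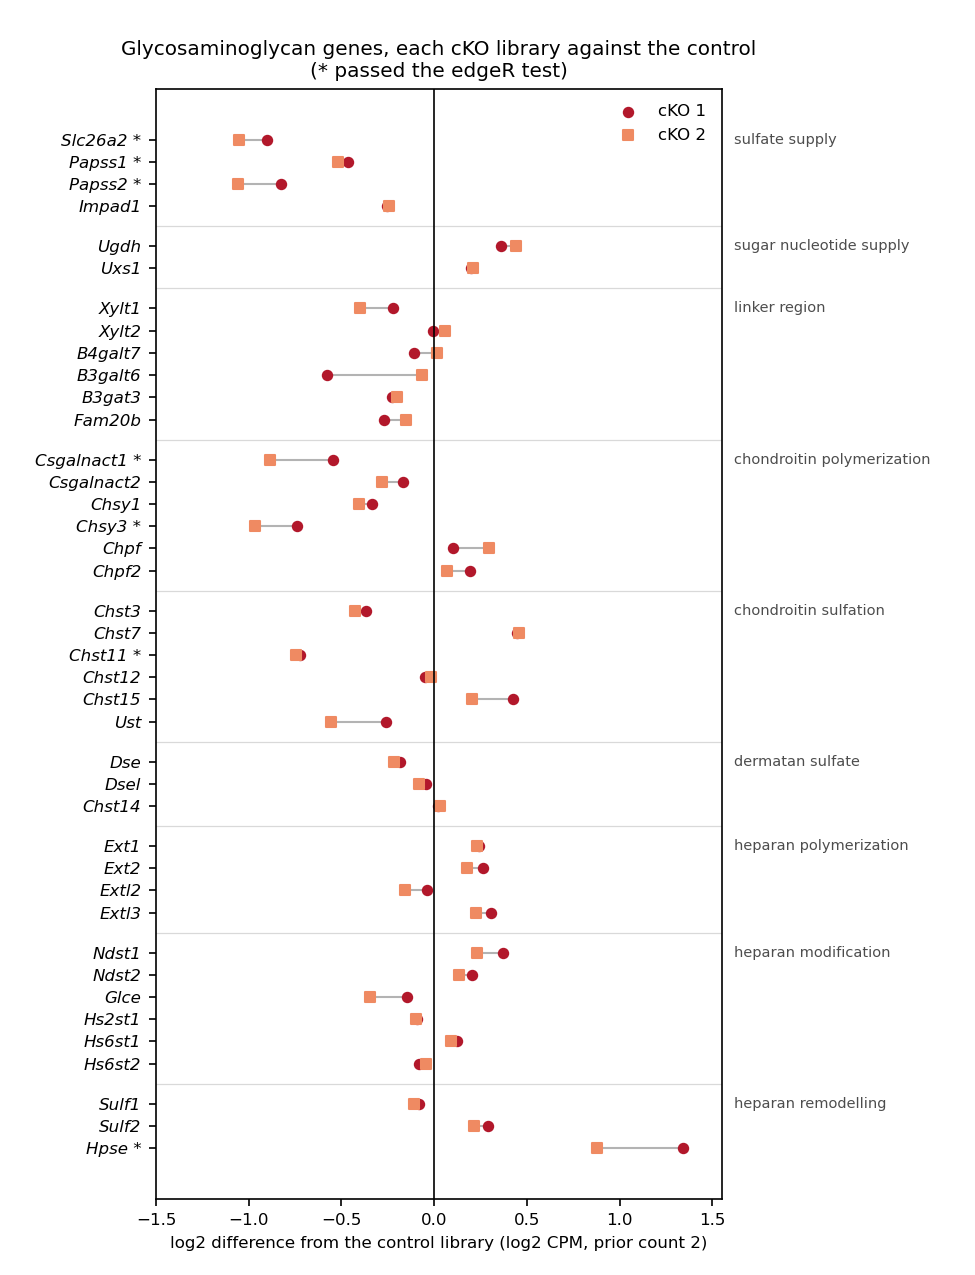
Log2 difference of each cKO library from the control library for the 40 measured genes, grouped by role; circles are cKO 1, squares cKO 2 and asterisks mark genes that passed the edgeR test. The sulfate supply genes lie left of 0, down to -1.06 for Papss2 in cKO 2, and Hpse lies farthest right, at 1.34 in cKO 1 and 0.88 in cKO 2.

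**Figure D2:**
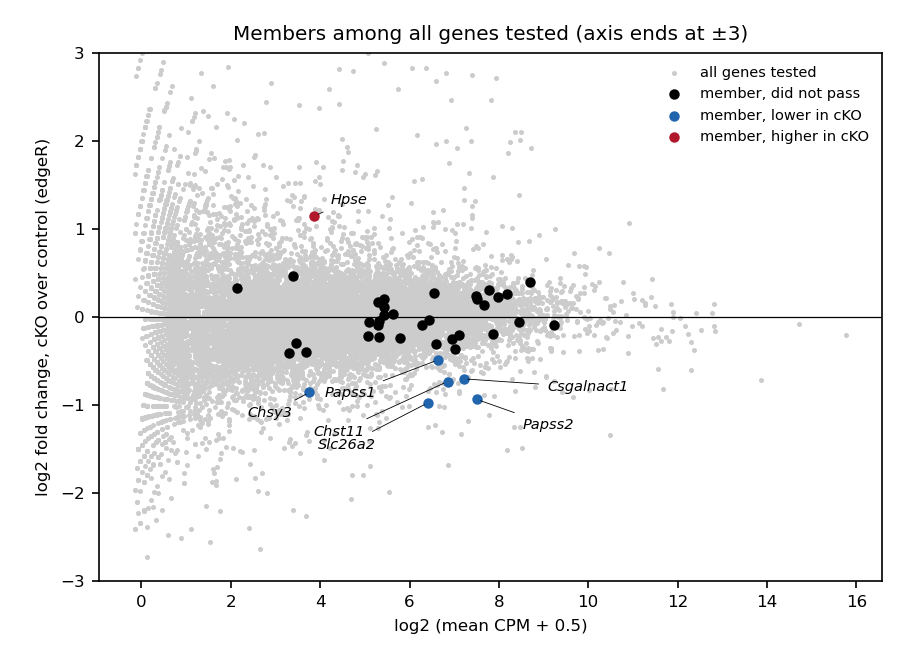
Log2 fold change (cKO over control, edgeR) against log2 mean CPM for all 15529 genes tested (grey), with the members that did not pass in black, those lower in cKO in blue and the one higher in red. The members that passed range from -0.98 for Slc26a2 to 1.14 for Hpse, and 135 genes that are not members lie beyond the axis limits of ±3.

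Sulfate supply was lower in cKO chondrocytes for 3 of its 4 genes. Slc26a2, the transporter that brings sulfate into the cell, had 67.7 and 60.8 CPM in cKO cells, against 126 CPM in control cells (843 and 778 counts, against 1568). Both cKO libraries were well below the control, and the log2 fold change was -0.98 ± 0.14 (SE, adjusted p = 5.09e-05 in edgeR). It passed in DESeq2 as well (adjusted p = 4.70e-04).

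PAPS, the sulfate donor, is made by a pair of related synthases. Papss2 (GRCm38 chromosome 19, 32595790 to 32667187), whose loss gives the brachymorphic mouse its short limbs, had 149.5 and 127.6 CPM in cKO cells, against 265.5 CPM in control cells. Its log2 fold change was -0.94 ± 0.14 (SE, adjusted p = 7.50e-05 in edgeR, 1.39e-04 in DESeq2). Its relative Papss1 (chromosome 3, 131564768 to 131643671) had 89.1 and 85.8 CPM in cKO cells, against 123 CPM in control cells, which is -0.49 ± 0.14 on the log2 scale (SE, adjusted p = 0.0364 in edgeR). The Papss1 call was lost in DESeq2 (adjusted p = 0.40) and with DESeq2 size factors in edgeR. The ratio of Papss2 to Papss1, which no library scaling can move, was 1.68 and 1.49 in cKO cells, against 2.16 in control cells. Neither this ratio nor the other ratios between genes given here were tested, since they rest on 1 control library.

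Impad1, which breaks down the by-product left after sulfate transfer, had 115 and 116 CPM in cKO cells, against 137 CPM in control cells, a log2 fold change of -0.25 ± 0.13 (SE), and did not pass (adjusted p = 0.391 in edgeR). Slc26a2 over Impad1 was 0.589 and 0.524 in cKO cells, against 0.921 in control cells. The summed level of the 4 genes was 421 and 390 CPM in cKO cells, against 652 CPM in control cells.

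The genes for sugar donors and the linker gave no call. Ugdh, which makes UDP-glucuronic acid, the acidic sugar of both chain types, was higher in both cKO libraries, at 436 and 461 CPM against 340 CPM in the control, but did not pass (log2 0.40 ± 0.14 SE, adjusted p = 0.135 in edgeR). Uxs1, which turns that sugar into UDP-xylose, was at 44.4 and 44.7 CPM in cKO cells, against 38.6 CPM in control cells. Of the linker genes 0 of 6 passed in edgeR, limma-voom or DESeq2, and 1, Xylt1, had an unadjusted p under 0.05.

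Xylt1 and Xylt2 attach the xylose that starts the linker. Xylt1 had 94.0 and 83.0 CPM in cKO cells, against 109.5 CPM in control cells (log2 -0.31 ± 0.14 SE, adjusted p = 0.279 in edgeR), and Xylt2 had 41.7 and 43.7 CPM in cKO cells, against 41.9 CPM in control cells. Fam20b, the kinase that phosphorylates the xylose and the most abundant linker gene per length, had 14.3 and 15.5 CPM per kb in cKO cells, against 17.2 CPM per kb in control cells. B4galt7 and B3galt6 add the galactoses of the linker and B3gat3 its glucuronic acid, and their log2 fold changes were -0.05, -0.30 and -0.22. B3galt6 spread most between the cKO libraries, at 7.95 and 11.4 CPM, against 11.9 CPM in the control.

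Chondroitin chain building was lower for 2 of its 6 genes. Csgalnact1 (chromosome 8, 68356781 to 68735146), which adds the first galactosamine and thereby commits the linker to chondroitin, had 136 and 108 CPM in cKO cells, against 199 CPM in control cells. Its log2 fold change was -0.71 ± 0.14 (SE, adjusted p = 0.00377 in edgeR, 0.0414 in DESeq2). Csgalnact2, which shares that step, had 38.5 and 35.7 CPM in cKO cells, against 43.4 CPM in control cells, and did not pass (adjusted p = 0.56 in edgeR). The ratio of Csgalnact1 to Csgalnact2 was 3.53 and 3.02 in cKO cells, against 4.58 in control cells.

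The chain is then extended by chondroitin synthases. Chsy3 had 138 and 121 counts in cKO cells, against 231 in control cells, or 11.1 and 9.45 CPM against 18.6 CPM. It fell by 0.86 ± 0.22 on the log2 scale (SE, adjusted p = 0.0262 in edgeR), and the call was lost in DESeq2 (adjusted p = 0.585) with the same fold change of -0.86. Chsy1, the more abundant synthase per length, was at 28.7 and 27.4 CPM per kb in cKO cells, against 36.2 CPM per kb in control cells, and did not pass (log2 -0.37 ± 0.13 SE, adjusted p = 0.142 in edgeR).

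Their partners Chpf and Chpf2, which promote polymerization, lay on the other side of the control. Chpf had 177 and 203 CPM in cKO cells, against 165 CPM in control cells, and Chpf2 had 217 and 199 CPM in cKO cells, against 189 CPM in control cells, and neither passed (adjusted p = 0.549 and 0.721 in edgeR). Chpf2 shares 44.1% of its exon length with Smarcd3 on the opposite strand, so its counts are uncertain. The summed level of the 6 genes was 699 and 669 CPM in cKO cells, against 766 CPM in control cells.

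Among chondroitin sulfotransferases 1 of 6 measured genes fell. Chst11 (chromosome 10, 82985498 to 83195900), which puts sulfate on position 4 of galactosamine and is needed for a normal growth plate in mice, had 95.0 and 93.4 CPM in cKO cells, against 157 CPM in control cells. The cKO libraries nearly coincided, and the log2 fold change was -0.74 ± 0.13 (SE, adjusted p = 9.56e-04 in edgeR, 0.0119 in DESeq2). Chst12, which acts on the same position, was at 85.1 and 87.0 CPM in cKO cells, against 87.9 CPM in control cells, which is -0.03 ± 0.14 on the log2 scale (SE, adjusted p = 0.954 in edgeR). Chst11 over Chst12 was 1.12 and 1.07 in cKO cells, against 1.78 in control cells. Per length, Chst12 was at 36.0 and 36.9 CPM per kb in cKO cells, against 37.2 CPM per kb in control cells, and Chst11 at 17.2 and 16.9 CPM per kb in cKO cells, against 28.4 CPM per kb in control cells. Chst13, another enzyme for position 4, had 0 counts in each library, which allows up to 0.241 and 0.234 CPM in the cKO libraries and 0.242 CPM in the control for counting error only.

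The enzymes for position 6 were scarcer. Chst3 had 11.3 and 10.9 CPM in cKO cells, against 14.7 CPM in control cells, and Chst7 had 136 and 141 counts in cKO cells, against 99 in control cells, with log2 fold changes of -0.40 ± 0.23 and 0.46 ± 0.26 (SE) that did not pass (adjusted p = 0.428 and 0.425 in edgeR). Chst7 is X-linked, and the cKO libraries, which differ in sex-linked RNA, lay 0.01 apart on the log2 scale. Any effect of that sex-linked difference on Chst7 was not tested. Chst11 over Chst3 was 8.39 and 8.60 in cKO cells, against 10.7 in control cells. Chst15, which adds a further sulfate to galactosamine that already carries one, and Ust, which sulfates the uronic acid, were rare. Chst15 had 56 and 49 counts in cKO cells, against 41 in control cells, and 17.9% of its exon length overlaps an antisense gene. Ust had 116 and 97 counts in cKO cells, against 139 in control cells, and neither gene passed. The summed level of the sulfotransferase set was 216 and 214 CPM in cKO cells, against 282 CPM in control cells.

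**Figure D3:**
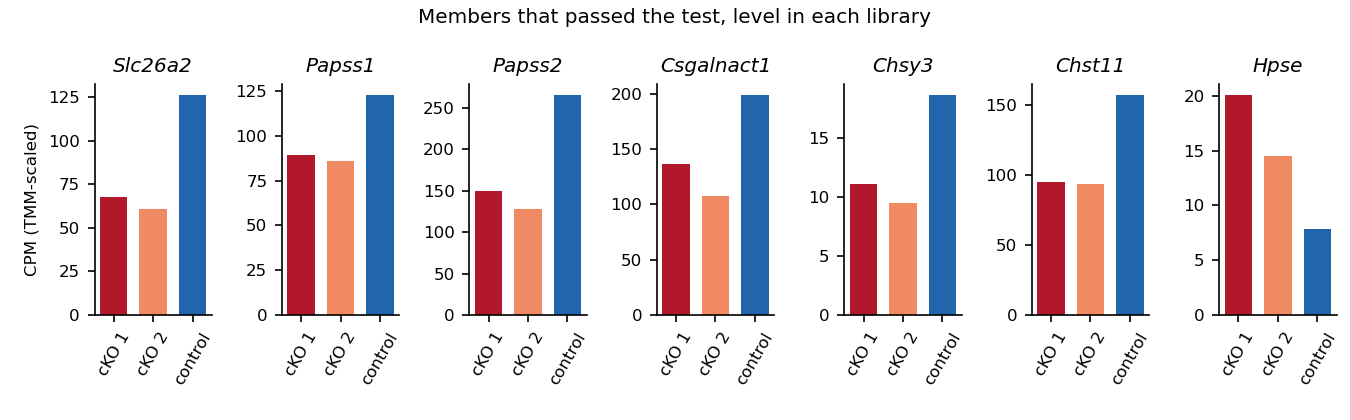
Level in CPM of the 7 genes that passed the edgeR test, 1 bar per library, each panel with its own axis from 0. For Slc26a2, Papss1, Papss2, Csgalnact1, Chsy3 and Chst11 both cKO bars are lower than the control bar, and for Hpse both are higher, at 20.1 and 14.5 CPM against 7.82 CPM.

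Dermatan sulfate arises when epimerases turn some glucuronic acid of chondroitin into iduronic acid. The epimerase genes Dse and Dsel and the dermatan sulfotransferase gene Chst14 gave 0 calls of 3, in DESeq2 and limma-voom as well, and 0 had an unadjusted p under 0.05. Dse, the most abundant per length, was at 45.4 and 44.4 CPM per kb in cKO cells, against 51.5 CPM per kb in control cells, a log2 fold change of -0.20 ± 0.13 (SE). Dsel had 33.4 and 32.5 CPM in cKO cells, against 34.4 CPM in control cells, and Chst14 had 49.4 and 49.6 CPM in cKO cells, against 48.6 CPM in control cells. These 3 genes had log2 fold changes between -0.20 and 0.03.

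Heparan sulfate genes had a median log2 fold change of 0.17 over 13 measured members, and 1 rose, while the chondroitin building and sulfation genes had a median of -0.30 over 12, of which 3 fell. The difference between these sets was not tested. Of the member genes that build the heparan chain 0 of 4 passed in edgeR, limma-voom or DESeq2, and 0 had an unadjusted p under 0.05. Extl1, an exostosin family gene outside the members and so outside this median, fell. Its log2 fold change was -1.63 (adjusted p = 7.61e-06 in edgeR, 4.36e-04 in DESeq2). Ext1 and Ext2, which form the heparan polymerase, were higher in both cKO libraries, at 190 and 188 CPM against 160 CPM in the control for Ext1, and at 274 and 259 CPM against 229 CPM in the control for Ext2. Their log2 fold changes were 0.23 ± 0.14 and 0.22 ± 0.14 (SE), with adjusted p of 0.436 and 0.484 in edgeR. Extl3, which starts the heparan chain, had 102 and 96.4 CPM in cKO cells, against 82.5 CPM in control cells, and Extl2, a related transferase that acts on the linker, had 39.2 and 36.2 CPM in cKO cells, against 40.3 CPM in control cells.

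Of the 6 measured genes that sulfate and epimerize heparan, 0 passed in edgeR, limma-voom or DESeq2, and 1, Ndst1, had an unadjusted p under 0.05. Ndst1, which replaces acetyl groups by sulfate and so opens the way for later steps, had 246 and 223 CPM in cKO cells, against 190 CPM in control cells (log2 0.30 ± 0.14 SE, adjusted p = 0.281 in edgeR). Its relative Ndst2 had 41.0 and 39.1 CPM in cKO cells, against 35.5 CPM in control cells. Hs6st2, an enzyme for position 6 and the most abundant gene of this set per length, was at 43.8 and 45.0 CPM per kb in cKO cells, against 46.4 CPM per kb in control cells. It is X-linked, and its log2 fold change was -0.06 ± 0.14 (SE). The epimerase gene Glce, the gene for the sulfotransferase of the uronic acid, Hs2st1, and Hs6st1 had log2 fold changes of -0.24, -0.10 and 0.11. Hs3st1, which completes the antithrombin-binding site of heparan chains, had 1 and 2 counts in cKO cells, against 0 in control cells.

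Finished heparan chains are trimmed outside the cell. Hpse (chromosome 5, 100679484 to 100719716), the endoglucuronidase that cuts heparan chains, had 250 and 186 counts in cKO cells, against 97 in control cells, or 20.1 and 14.5 CPM against 7.82 CPM. It rose by 1.14 ± 0.26 on the log2 scale (SE, 2.21-fold, adjusted p = 0.00783 in edgeR), with the cKO libraries 0.46 apart on the log2 scale, and did not pass in DESeq2 (adjusted p = 0.179). Sulf1 and Sulf2 encode the sulfatases that remove sulfate from position 6 of heparan. Sulf1 had 593 and 582 CPM in cKO cells, against 626 CPM in control cells, and Sulf2 had 316 and 300 CPM in cKO cells, against 258 CPM in control cells, and neither passed (adjusted p = 0.843 and 0.399 in edgeR). Sulf2 over Sulf1 was 0.533 and 0.516 in cKO cells, against 0.413 in control cells.

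The measured members spanned about 2 orders of magnitude when compared per kb of merged exon. Ugdh led by the mean of the 3 libraries, with 64.6 and 68.3 CPM per kb in cKO cells, against 50.3 CPM per kb in control cells, followed by Sulf1 and Sulf2. Papss2 was at 40.2 and 34.3 CPM per kb in cKO cells, against 71.4 CPM per kb in control cells, where it was the highest of the 40. Sulf1, at 52.5 and 51.5 CPM per kb in cKO cells, against 55.5 CPM per kb in control cells, and Sulf2, at 53.9 and 51.1 CPM per kb in cKO cells, against 44.0 CPM per kb in control cells, could not be ranked, since their libraries overlap. At the low end were Chst15, at 0.666 and 0.567 CPM per kb in cKO cells, against 0.489 CPM per kb in control cells, and Chsy3, at 1.53 and 1.31 CPM per kb in cKO cells, against 2.58 CPM per kb in control cells.

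**Figure D4:**
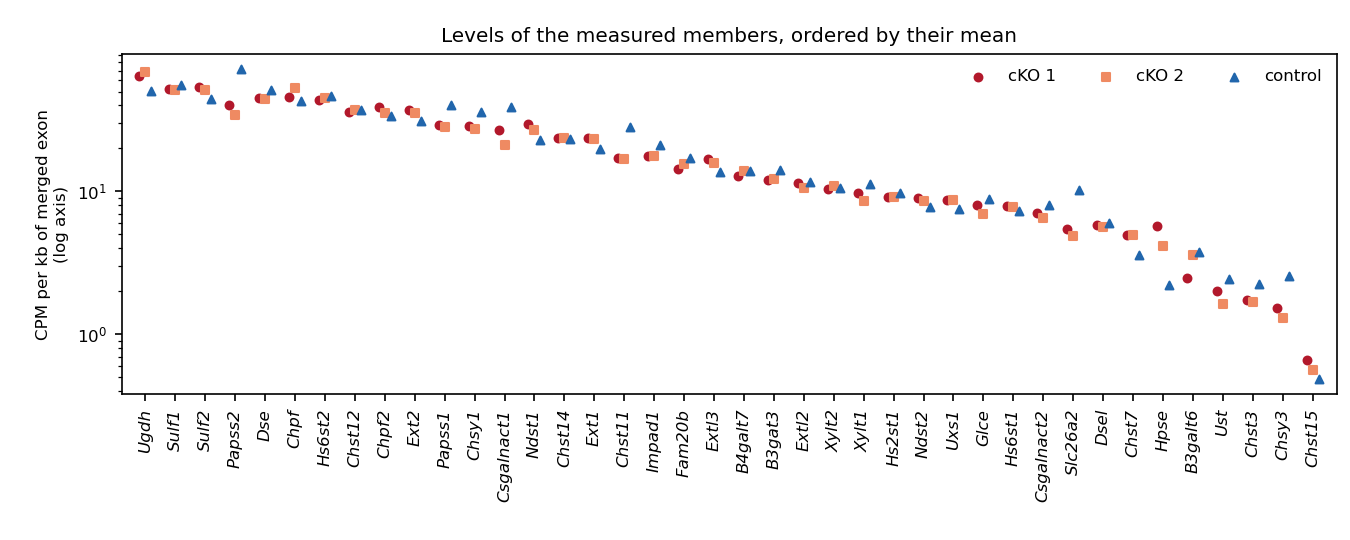
Level in CPM per kb of merged exon (log axis) of the 40 measured genes in cKO 1 (circles), cKO 2 (squares) and the control (triangles), ordered by the mean over the 3 libraries. Papss2, Csgalnact1, Chst11 and Slc26a2 show the control triangle above both cKO points, and Hpse shows the cKO points, at 5.71 and 4.13 CPM per kb, above the control triangle at 2.22 CPM per kb.

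Promoter windows of the members that moved are shown because the histone mark that Kdm6b erases is known to sit at promoters rich in CG dinucleotides. The windows run from 250 bases before to 50 after the gene start (RefSeq, GRCm38.p6), and 33 of the 42 members had one. They held a median of 24 CG dinucleotides, counted for the most upstream start of each gene, against 7 over all 32851 windows in the table. These medians are not like for like, since the second takes every window of every gene, whether measured here or not. The difference was not tested. Of the members that passed, Slc26a2, Csgalnact1 and Chsy3 had no window. The windows of the members that passed and have an entry are written 5′ to 3′ along the gene, with each CG in capitals. They lie at chr3:131564518-131564817 (plus strand) for Papss1, chr19:32595465-32595764 (plus strand) for Papss2, chr10:82985247-82985546 (plus strand) for Chst11 and chr5:100719667-100719966 (minus strand) for Hpse.
Papss1: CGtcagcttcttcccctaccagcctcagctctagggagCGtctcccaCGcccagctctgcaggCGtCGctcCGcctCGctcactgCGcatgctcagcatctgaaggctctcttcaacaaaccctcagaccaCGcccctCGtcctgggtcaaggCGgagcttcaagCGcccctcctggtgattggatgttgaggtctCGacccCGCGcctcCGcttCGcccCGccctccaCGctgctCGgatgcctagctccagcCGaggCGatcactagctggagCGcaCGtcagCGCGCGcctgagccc
Papss2: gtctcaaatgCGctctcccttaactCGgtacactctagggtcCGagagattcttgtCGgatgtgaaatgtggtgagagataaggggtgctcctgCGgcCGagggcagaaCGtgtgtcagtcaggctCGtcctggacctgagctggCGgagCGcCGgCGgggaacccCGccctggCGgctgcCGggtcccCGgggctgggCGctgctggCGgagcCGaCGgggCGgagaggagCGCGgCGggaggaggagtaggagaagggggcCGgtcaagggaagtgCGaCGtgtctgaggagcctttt
Chst11: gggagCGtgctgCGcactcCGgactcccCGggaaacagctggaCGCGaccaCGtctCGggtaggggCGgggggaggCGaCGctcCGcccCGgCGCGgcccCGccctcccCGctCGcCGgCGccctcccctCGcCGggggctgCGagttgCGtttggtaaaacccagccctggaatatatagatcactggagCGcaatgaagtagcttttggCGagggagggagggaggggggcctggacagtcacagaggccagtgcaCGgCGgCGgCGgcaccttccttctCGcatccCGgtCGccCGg
Hpse: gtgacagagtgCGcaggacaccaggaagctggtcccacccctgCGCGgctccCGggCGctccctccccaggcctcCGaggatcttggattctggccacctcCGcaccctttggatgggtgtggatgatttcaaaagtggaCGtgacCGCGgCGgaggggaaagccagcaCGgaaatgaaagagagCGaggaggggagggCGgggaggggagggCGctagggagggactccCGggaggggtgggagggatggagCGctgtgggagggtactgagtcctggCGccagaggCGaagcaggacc

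The windows of Papss1 and Papss2 each held 27 CG dinucleotides, that of Chst11 held 34 and that of Hpse 19. Members that did not pass covered the same range, with 8 in B4galt7 and 48 in B3galt6. The cores of the SOX motif, AACAATG and AACAAAG, and the core of the interferon-stimulated response element were searched on both strands in the 41 windows of the members. AACAATG was in 0 of them, against 3.78% of all windows, AACAAAG was in 1 (Chst3), against 5.85%, and the interferon-stimulated response element core was in 1 (Csgalnact2), against 3.44%. None of the printed windows held any of the 3. This says only that these letters are not in these windows, and Slc26a2, Csgalnact1 and Chsy3 had no window to search.

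Other genes of the same pathways were called in both directions. Of 55 listed, 43 were measured, 2 fell, 3 rose and 38 did not pass, beside 1.90% lower and 3.01% higher over all genes tested, with a median log2 fold change of -0.03. Extl1, an exostosin family gene for a glucosamine transferase, had 9.80 and 9.53 CPM in cKO cells, against 29.9 CPM in control cells, and fell by 1.63 ± 0.20 on the log2 scale (SE, adjusted p = 7.61e-06 in edgeR). Gfpt2, whose enzyme feeds the hexosamine pathway, had 22.8 and 21.5 CPM in cKO cells, against 48.1 CPM in control cells, and fell by 1.12 ± 0.16 (SE, adjusted p = 8.68e-05 in edgeR). Both passed in DESeq2 too.

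Chst1, the keratan sulfate sulfotransferase gene, was higher, at 22.5 and 22.6 CPM in cKO cells, against 11.1 CPM in control cells (log2 1.02 ± 0.21 SE, adjusted p = 0.00401 in edgeR). Pxylp1, listed under its older symbol Acpl2, encodes the phosphatase that undoes the action of Fam20b, and it rose to 48.0 and 49.5 CPM in cKO, against 31.5 CPM in the control (log2 0.63 ± 0.16 SE, adjusted p = 0.0221 in edgeR). Arsb, whose lysosomal enzyme removes sulfate from position 4 of galactosamine, had 115.8 and 100.9 CPM in cKO cells, against 75.9 CPM in control cells. It rose by 0.51 ± 0.15 on the log2 scale (SE, adjusted p = 0.0428 in edgeR), and 32.3% of its exon length overlaps a noncoding gene on the opposite strand. None of these 3 passed in DESeq2 (adjusted p = 0.123, 0.362 and 0.395). In the lysosomal set the other 16 of 17 measured genes did not pass, and the median was 0.07.

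Markers of the chondrocyte moved in the same direction as those sulfate supply and chondroitin genes that passed the edgeR test. All 10 were present, and 9 fell in edgeR, beside 1.90% lower over all genes tested. In DESeq2 the calls of Sox9, Matn3 and Chad were lost (adjusted p = 0.0567, 0.0637 and 0.595). With 5 prior degrees of freedom these calls and that of Comp were lost. With 3, only the call of Matn1 stayed (adjusted p = 0.0313 in edgeR). Col2a1 did not pass in edgeR but did in DESeq2 and limma-voom. Their summed level was 15300 and 14350 CPM in cKO cells, against 25740 CPM in control cells. Of 10 fibroblast and synovium markers 8 were measured and 2 rose in edgeR, Thy1 and Prg4, with a summed level of 20380 and 18480 CPM in cKO cells, against 20890 CPM in control cells. Both calls were lost in DESeq2 (adjusted p = 1 for Thy1 and 0.318 for Prg4) and with 5 prior degrees of freedom. The Thy1 difference from the control was 2.14 on the log2 scale in cKO 1 and 0.84 in cKO 2. Of 10 mural markers 8 were measured and 0 passed in edgeR, limma-voom or DESeq2 (unadjusted edgeR p was under 0.05 for 2), with sums of 606.5 and 817 CPM in cKO cells, against 645 CPM in control cells. Leukocyte markers summed to 12.7 and 13.1 CPM in cKO cells, against 7.90 CPM in control cells, 4 of 10 were measured and 0 passed in edgeR, limma-voom or DESeq2 (unadjusted edgeR p was under 0.05 for 2), and Adgre1, Itgam, Cd3e and Tyrobp were at 0 in each library. Of 10 osteoblast markers 5 were measured and 1, Ibsp, fell in edgeR, with sums of 1927 and 1992 CPM in cKO cells, against 1518 CPM in control cells, nearly all of it Spp1, and Sost was at 0. The Ibsp call was lost in DESeq2 (adjusted p = 0.649) and with 5 prior degrees of freedom. The part of these cell types in the values of the glycosaminoglycan genes was not tested.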

How the data were processed

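Bulk RNA-seq was available for 2 cKO libraries and 1 control library. Per the labels' protocols, RNA was depleted of ribosomal RNA and sequenced as Ion Proton libraries. The authors deposited raw read counts per gene symbol. The submitters' processing notes list GRCm38 and GRCh37 without a role. No aligner, counter, annotation or strand setting is named (not given in the sources used here). Without strand, reads of a gene and an overlapping antisense gene cannot be told apart.

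Counts were tested with edgeR 4.0.16 in R 4.3.3 (filterByExpr, TMM, quasi-likelihood F test without the legacy option, Benjamini-Hochberg adjustment over all 15529 genes tested, threshold 0.05). The SE is the absolute log2 fold change over the root of F. The difference between the cKO columns exceeded counting noise (chi-square of 9.06 per gene over 16293 genes with at least 10 counts in sum), so they were kept as separate libraries. The rule without a model used log2 CPM with a prior count of 2. Alternatives were DESeq2 1.42.0, limma-voom (limma 3.58.1), DESeq2 size factors, other low-count filters, fixed prior degrees of freedom, other prior counts and leaving out each cKO library. Scripts were tested on simulated data. Positions and merged exon lengths are from GENCODE M21 (GRCm38).

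The members and lists were chosen with earlier results of these data known. All 42 members are accounted for, and those past the threshold and the most abundant of each role per length are given library by library. Of the other pathway lists, the genes past the threshold are named.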

Additional observations from a re-analysis of the deposited data

How the results depend on the processing

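No member changed sign under any of the 7 alternative fits, which all use the same 3 libraries. With a cKO library left out, signs did change. Xylt2, at a log2 fold change of 0.026 as reported, was at -0.008 without cKO 2. B4galt7, at -0.045 as reported, was at 0.015 without cKO 1. Of the 7 called members, limma-voom called 7, DESeq2 size factors in edgeR 6, DESeq2 4, the filter at a mean of at least 5 CPM 3, prior degrees of freedom of 5 called 1, and both prior degrees of freedom of 3 and no low-count filter called 0. Members called lower numbered 6 as reported, 3 with the filter at 5 CPM, 1 with prior degrees of freedom of 5, and 0 with 3 or without a filter. Members called higher numbered 1 as reported and 0 in DESeq2, with the filter at 5 CPM, with either fixed prior and without a filter. Other pathway genes called higher numbered 3 as reported, 1 with the filter at 5 CPM, and 0 in DESeq2, with either fixed prior and without a filter. Those called lower numbered 2 as reported and 0 with prior degrees of freedom of 3 or without a filter. Beside these counts of 0, 9 members had an unadjusted p under 0.05 without a filter, with the filter at 5 CPM and with either fixed prior, and 8 in DESeq2, as did 6 other pathway genes without a filter and 5 with either fixed prior or in DESeq2. Over all genes, 295 were called lower and 467 higher as reported, against 0 and 0 without a filter, where the estimated prior degrees of freedom were 2.03, 89 and 201 with the filter at 5 CPM (5.58), 84 and 226 in DESeq2, 42 and 151 with a prior of 5 and 4 and 83 with a prior of 3. The median log2 fold change of the members was -0.10 with the filter at 5 CPM, and -0.08 to -0.07 when either cKO library was left out, against -0.08 as reported. Leaving out a cKO library gave 4 to 5 members at least 1.5-fold lower and 1 at least 1.5-fold higher; 1 library against 1 allows no test. No paired analysis was possible because the control is 1 library without a replicate number.

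With 1 control library, its own deviation cannot be told apart from the genotype. Depth limits Chst15 and the members near 0, where a few counts move the value.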

Other observations

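The listed genes for enzymes that place sulfate on position 3 of heparan glucosamine were at or near 0 or had low counts in these chondrocytes. The lists do not hold every gene of this family. Hs3st2 had 0 counts in each library, Hs3st5 had 0 and 3 in cKO cells, against 1 in control cells, and Hs3st6 had 3 and 2 in cKO cells, against 2 in control cells. The highest were Hs3st3b1, with 14 and 14 counts in cKO cells, against 22 in control cells, and Hs3st3a1, with 10 and 9 counts in cKO cells, against 14 in control cells, and neither passed the edgeR test (adjusted p = 0.632 and 0.763). Hs3st3a1 shares 32.9% of its exon length with a gene on the opposite strand, so its counts are uncertain. Of the N-sulfotransferases, Ndst3 had 18 and 22 counts in cKO cells, against 17 in control cells, and Ndst4 had 5 and 2 counts in cKO cells, against 6 in control cells, while Ndst1 had at least 2355 in each library. B3gnt7, which extends keratan sulfate chains, had 1 and 0 counts in cKO cells, against 1 in control cells. These genes were chosen for description after their values were seen.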
